A study of Mus musculus with 3 samples.

Results

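The genes described here are mouse E3 ubiquitin ligases, their cullin scaffolds and their substrate receptors, compared between liver RNA and a common reference RNA. They were chosen by symbol. A probe was a member if the platform annotation gave it 1 gene symbol that begins with Rnf, Trim and a digit, Fbxo, Fbxw, Fbxl, Cul and a digit, Klhl, March, Siah, Nedd4, Herc, Anapc, Skp1 or Skp2. This found 182 probes of 113 genes, out of 7984 genes with such probes on the array. A ratio on all 3 arrays was measured for at least 1 probe of 80 member genes. The best probe of 5 further genes had a ratio on 2 arrays and that of 13 on 1 array, and 15 genes were listed at exact 0 throughout.

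Purchased mouse liver total RNA, labelled with Cy5, was hybridised against Universal Mouse Reference RNA (UMRR), labelled with Cy3, on each of 3 arrays of 2 colours. UMRR is sold as a mixture of RNAs from several mouse cell lines. Both RNAs were bought as single products, for which strain, sex, age and the number of animals are not stated in the labels. The arrays therefore repeat 1 pair of RNAs, and the p-values below cover array-to-array variation, possibly all technical. Liver carried Cy5 on every array, so that a difference between the dyes cannot be told apart from one between the RNAs.

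Each value is a log2 ratio of liver over UMRR, so 1 stands for a 2-fold difference and a negative value for a lower level in liver. Base 2 is an assumption, since no source used here names the base; natural logs would make each log2 value 1.44 times larger. Which side is liver was read from hepatocyte secretory genes, of which 4 of 4 measured were above 0 on every array, with a median of 4.57. Markers of other cells also moved with the comparison. Of 14 measured pancreatic acinar genes, 13 were higher in liver, with means from 0.22 to 5.55 over the list and medians of 4.10, 4.61 and 4.49 on arrays 1, 2 and 3. Of 5 measured erythroid genes, 3 were higher, with means from 0.22 to 4.94 and array medians of 2.31, 3.46 and 3.49. Of 12 measured cell cycle genes, 10 were lower, with means from -4.15 to 0.071 and array medians of -2.22, -2.38 and -2.42. Their part in the ligase ratios was not tested. In RNA from whole tissue, fewer cells of a type and less RNA per cell cannot be told apart.

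Ubiquitin is passed from an activating enzyme (E1) to a conjugating enzyme (E2) and from there, with the help of a ligase (E3), to a substrate protein. In cullin-RING ligases a cullin holds a RING protein at one end and an adaptor with an exchangeable receptor at the other: Skp1 carries F-box proteins, and Klhl proteins join Cul3 directly. The anaphase-promoting complex (APC/C) is a large relative of these that drives exit from mitosis, while most Rnf, Trim and March proteins carry their own RING domain and Nedd4 and Herc proteins a HECT domain.

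The 80 measured genes did not lean to either RNA. By limma, with p-values adjusted after Benjamini and Hochberg over 5520 genes, 25 were higher in liver, 26 were lower and 29 did not pass at an adjusted p of 0.05. Over all genes 64.0% passed, 30.1% higher and 33.9% lower, against which the member shares of 31.2% higher and 32.5% lower are near the background. The median log2 ratio was -0.10 for the members and -0.028 for all genes. A ratio of at least 2-fold with 1 sign on every array was reached by 8 members on the liver side, beside 9.46% of all genes, and by 4 on the UMRR side, beside 9.53%. Together these are 15% of the members, beside 19.0% of all genes.

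The spread of the members' ratios is given beside that of all genes as a description, with no test of a difference. The median absolute log2 ratio was 0.48 for both. The SD across genes was 0.84 for the members and 1.09 for all genes, and 64 of 80 members (80%) had a mean within 1 log2 unit of 0, beside 75.1% of all genes. The highest member, Cul7, was exceeded by 250 genes, and 18 genes lay below the lowest, Trim59. A mean of at least 1 log2 unit together with a passed test was found for 16 of 80 members, 9 higher and 7 lower, beside 1375 of all 5520 genes. Tested against a 2-fold difference instead of 0, 6 of the 80 members passed, beside 816 of all 5520 genes. These were Cul7, Rnf125, Marchf2 and Fbxo8 on the liver side, and Trim59 and Trim16 on the UMRR side.

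**Figure D1:**
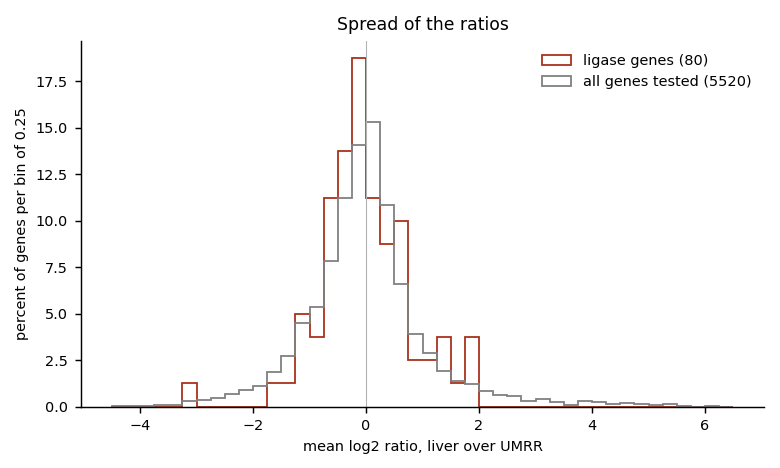
Distribution of the mean log2 ratio of liver over UMRR (horizontal axis) as percent of genes per bin (vertical axis), for the 80 measured ligase genes and for all 5520 genes tested. Both outlines are centred close to 0, and that of the ligase genes ends at 1.95 on the liver side, where the outline of all genes runs on to 6.14.

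The cullins, which are the scaffolds, went both ways. Cul7, which binds a single F-box partner and is mutated in the human growth disorder 3-M syndrome, had log2 ratios of 1.77, 2.04 and 2.04 on arrays 1, 2 and 3. Its values lay close together on the 3 arrays, and its mean of 1.95 ± 0.16 (SD, n = 3) made it the highest of the 80 members at 3.88-fold (adjusted p = 1.90e-05 in the limma fit). This rests on 1 probe, as the other Cul7 probe was listed at exact 0 on every array. With zeros kept as ratios of 1, Cul7 stood at 0.98 (limma adjusted p = 0.00738). That was below Rnf125 (1.83), Marchf2 (1.81), Klhl25 (1.38), Rnf149 (1.35), Fbxo8 (1.22) and Rnf186 (1.22) in the same setting. Cul5, the scaffold that works with SOCS-box receptors, stood at -1.02, -0.92 and -0.69. It was lower in liver on every array, at -0.88 ± 0.17 (limma adjusted p = 0.000549).

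Cul4a, which holds receptors through Ddb1, was slightly higher at 0.33 ± 0.13 (limma adjusted p = 0.0267), and this call was lost without array 2 (adjusted p = 0.197) or array 3 (0.116). Cul2, the scaffold of the von Hippel-Lindau receptor, had values of 0.57, 0.19 and -0.015 and did not pass. Cul9, a large cullin known to bind p53, had values of -0.12, 0.82 and 0.37; it did not pass with all arrays, and passed without array 1 (0.60, adjusted p = 0.00204). Cul3 had a ratio on 2 arrays only (-0.094 and -0.24) and Cul4b on 1 (-0.32), while Cul1, the scaffold of the Skp1 complexes, was listed at exact 0 for both of its probes. The scaffold that carries most F-box receptors was therefore not measured.

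Skp1, the adaptor between Cul1 and the F-box proteins, averaged -0.67 ± 0.13 over 4 probes (SD, n = 3 arrays, limma adjusted p = 0.00145), but these probes did not share a value. Probes 6544 and 8104 stood at -1.35 and -1.31, while probes 49 and 7640 stood at -0.070 and 0.051. The low pair is annotated with the same sequence record, so the gene mean may count 1 sequence more than once. In the fit on single probes, in which 64.9% of all probes passed, the first pair passed (adjusted p = 7.39e-05 and 0.000124) and the other pair did not (0.571 and 0.774). One more probe, measured on arrays 1 and 2, read 0.36 and 0.33. The size of the Skp1 difference thus depends on the probe.

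F-box proteins select the substrates of Skp1 complexes, and 20 of the 28 genes that the symbols place here were measured, 1 of them a transcribed pseudogene, Fbxl12os. In liver 6 of them were higher (30%, beside 30.1% of all genes) and 8 lower (40%, beside 33.9%), and the median was -0.11. Fbxo8, which also carries a domain of exchange factors for Arf proteins, was the highest, with log2 ratios of 1.74, 1.37 and 1.40 on arrays 1, 2 and 3. Its mean was 1.50 ± 0.21 (SD, n = 3), or 2.83-fold (limma adjusted p = 7.40e-05). The 3 probes behind it gave 1.44, 1.50 and 1.57, and one more probe, measured on array 2 alone, gave 1.06. Those at 1.44 and 1.50 share 1 sequence record. Fbxo8 was thus higher in liver on every probe that gave a ratio.

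The other F-box genes on the liver side were below 2-fold. Fbxl20, a receptor described at synapses, stood at 0.74 ± 0.26 and Fbxo22 at 0.70 ± 0.33 (SD, n = 3). Fbxo36 followed at 0.61, Fbxo33 at 0.54 and Fbxl12 at 0.36. In the limma fit on single probes, those of Fbxo36 stood at 0.90 (adjusted p = 0.000592) and 0.32 (0.0919). The probes of Fbxl12 differed, at 0.79 and -0.065, and Fbxl12 no longer passed without array 2 (adjusted p = 0.0992) or array 3 (0.0606). The pseudogene Fbxl12os did not pass, at 0.045 ± 0.23.

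Skp2 is the receptor that marks the cell cycle inhibitor p27 for destruction. Of the genes placed in this class by symbol and measured on all 3 arrays, Skp2 was the lowest. Its gene values were -1.24, -1.06 and -0.90, below 0 on every array, with a mean of -1.07 ± 0.17 (SD, n = 3, limma adjusted p = 0.000235). That mean joins 2 unlike probes. Probe 14762 gave -2.45, -2.07 and -1.67, and probe 4784 gave -0.035, -0.063 and -0.13. In the fit on single probes the first stood at -2.06 (adjusted p = 7.33e-05) and the second at -0.077 (adjusted p = 0.509), the widest gap between probes of any member.

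Of the remaining F-box genes on the UMRR side, Fbxl2 was lower at -0.94 ± 0.32 and Fbxo32, known as atrogin-1 from wasting muscle, at -0.73 ± 0.24 (SD, n = 3). Fbxo45, a receptor of the nervous system, followed at -0.68, Fbxo25 at -0.67, Fbxw11 at -0.51, Fbxo44 at -0.48 and Fbxl6 at -0.29. Fbxw11 is a receptor for phosphorylated beta-catenin and inhibitors of NF-kappaB. A second probe of Fbxo25, with a ratio on 2 arrays, read 0.32 and 0.16, on the other side of 0, and with such probes let in the call of Fbxo25 was lost (-0.39, adjusted p = 0.0704). The call of Fbxw11 was lost without array 2 (adjusted p = 0.0837) or array 3 (0.0981), and that of Fbxl6 without array 2 (0.0609) or array 3 (0.324) and after centring of the arrays (0.0675). Fbxo5, the inhibitor of the APC/C that is also known as Emi1, had a ratio on array 2 alone, at -2.27.

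Klhl proteins are receptors of Cul3, and 5 of 8 genes were measured. Klhl25, whose known substrates include a repressor of translation initiation, had log2 ratios of 1.09, 1.57 and 1.48, all at least 2-fold on the liver side. Its mean was 1.38 ± 0.25 (SD, n = 3, limma adjusted p = 0.000148). Klhl8 was the lowest, at -0.49 ± 0.22 (limma adjusted p = 0.0104), and Klhl30 (-0.097) did not pass. Klhl28 (-0.24) did not pass with all arrays and passed without array 1 (-0.34, adjusted p = 0.00594).

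Klhl10, a gene of developing sperm, passed narrowly at 0.26 ± 0.067 (limma adjusted p = 0.0492), but its probes were called on opposite sides. Probe 1903 stood at 0.97 (adjusted p = 0.000481 among single probes) and probe 8370 at -0.46 (0.0102). Its call as a gene was also lost without array 2 (adjusted p = 0.170) or array 3 (0.222). No direction is therefore given for Klhl10.

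Among the APC/C subunits named Anapc, 3 of 6 genes were measured and all 3 had means below 0, beside 2852 of all 5520 genes. Cdc26, a subunit of another name that is listed below with the partners, did not pass at 0.24 ± 0.16. Anapc10, which helps the complex to hold its substrates, stood at -1.005, -1.39 and -1.31. It was lower in liver by at least 2-fold on every array, at -1.23 ± 0.20 (SD, n = 3, limma adjusted p = 0.000163). Anapc16 was lower at -0.37 ± 0.023 (limma adjusted p = 0.0114), a call lost without array 2 (adjusted p = 0.0646) or array 3 (0.114). Its probes varied more between arrays than their mean did, with SDs of 0.20 for probe 5888 and 0.16 for probe 10170. In the limma fit on single probes the first stood at -0.54 (adjusted p = 0.00617) and the second at -0.20 (adjusted p = 0.141). Anapc15, which takes part in the release of the mitotic checkpoint, did not pass at -0.19 ± 0.031; it passed with the unmoderated variance (adjusted p = 0.0322) and with zeros kept (0.0194).

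The other Anapc genes had few ratios. Anapc5 had a ratio of -0.83 on array 2 from 1 probe and of -0.75 on array 1 from another. Anapc13 had a ratio on array 1 alone, and it was above 0 (1.58). Anapc1, the largest subunit, was listed at exact 0.

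**Figure D2:**
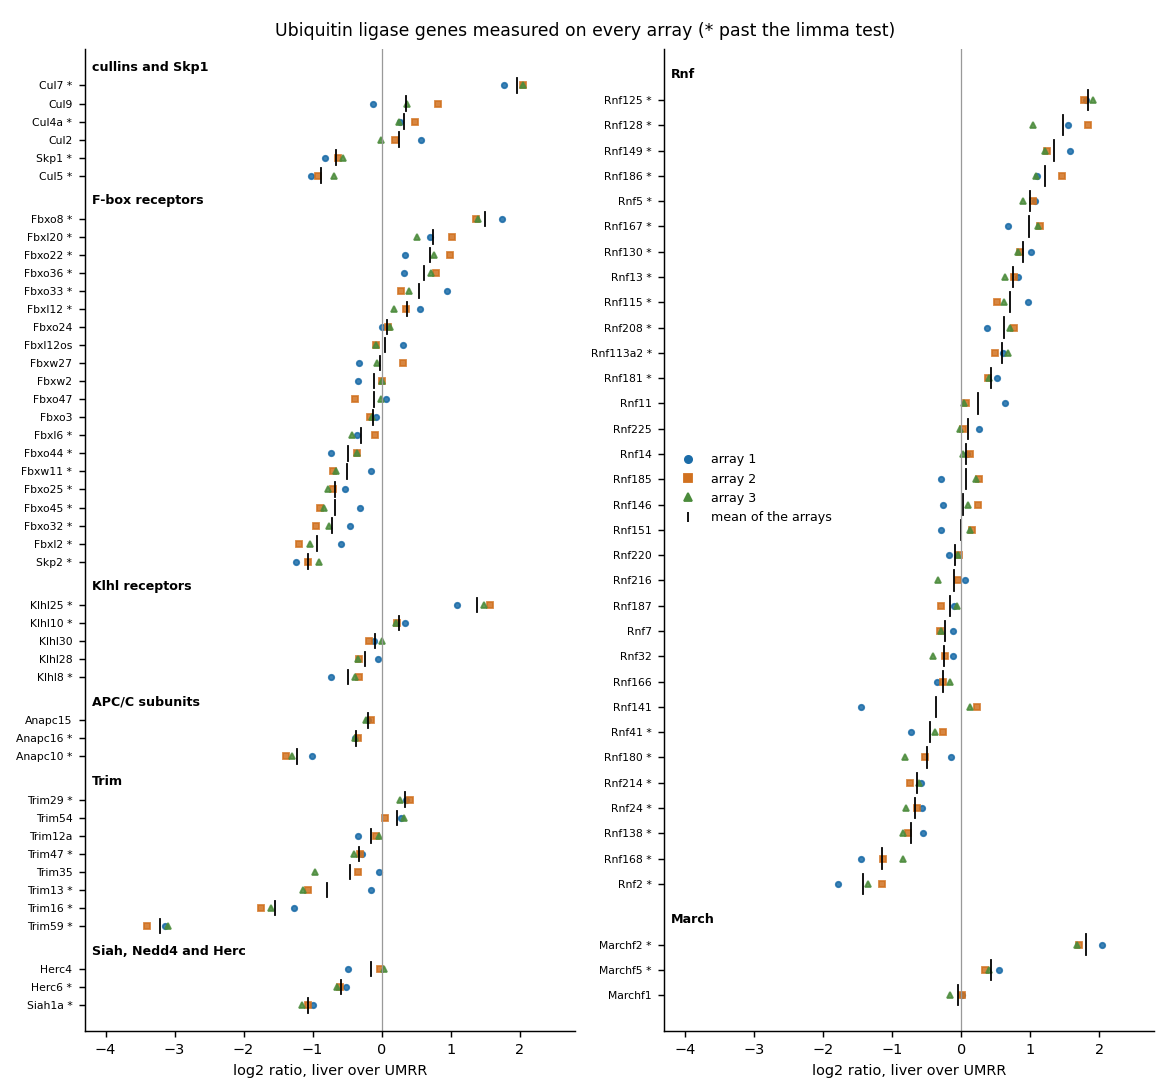
Log2 ratio of liver over UMRR (horizontal axis) of each of the 80 measured ligase genes on arrays 1, 2 and 3 (circle, square, triangle), with the mean as a bar, grouped by class. An asterisk marks the 51 genes past the limma test; Cul7 is the highest at 1.95 and Trim59 the lowest at -3.21, and the array 1 value of Rnf141 (-1.45) lies far from its values on the other arrays.

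Rnf genes form the largest class, with 32 of 41 measured. In liver 12 of them were higher (37.5%, beside 30.1% of all genes) and 7 lower (21.9%, beside 33.9%), and the median was 0.045. Rnf125, a ligase known to act on the RNA sensor RIG-I, was the highest of them, with log2 ratios of 1.81, 1.78 and 1.91 on arrays 1, 2 and 3. These values were nearly alike, and the mean was 1.83 ± 0.069 (SD, n = 3), or 3.57-fold (limma adjusted p = 1.61e-05).

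A set of 5 Rnf genes encodes ligases with a protease-associated domain, a single transmembrane segment and a RING (PA-TM-RING proteins), which sit in endosomes, lysosomes and other membranes. All 5 on the array were measured and higher in liver, with means from 0.74 to 1.48 and a median of 0.98. Over all genes 30.1% were higher. This grouping was made after the values were seen, so the count is a description from which nothing is read. Rnf128, known as GRAIL from unresponsive T cells, had values of 1.55, 1.84 and 1.04, above 2-fold on every array but with a wide spread. Its mean was 1.48 ± 0.40 (SD, n = 3, limma adjusted p = 0.000357), and with each gene's own variance, unmoderated, its adjusted p was 0.0578. Its other probe was at exact 0 throughout, and with zeros kept its value was 0.74 (adjusted p = 0.0392).

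Rnf149 had values of 1.57, 1.24 and 1.22, with a mean of 1.35 ± 0.20 (limma adjusted p = 0.000107), and both of its probes were above 0 (1.46 and 1.23). Rnf167, a ligase of endosomes and lysosomes, stood at 0.98 ± 0.26, Rnf130, the relative of fly Goliath, at 0.90 ± 0.098 and Rnf13 at 0.74 ± 0.094 (SD, n = 3). Other ligases anchored in membranes went both ways. Of 10 such genes measured, named Rnf, March or Trim, 4 were higher (40%, beside 30.1% of all genes) and 4 lower (40%, beside 33.9%).

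On the liver side of that membrane group stood Rnf186, a ligase of the endoplasmic reticulum, with 1.10, 1.46 and 1.08 and a mean of 1.22 ± 0.22 (SD, n = 3, limma adjusted p = 0.000190). Rnf5, which marks misfolded proteins at the endoplasmic reticulum, had values of 1.07, 1.04 and 0.90. Its mean was 1.00 ± 0.092 (limma adjusted p = 0.000192). A further 3 probes of Rnf5, each with a ratio on 1 array, read 1.70, 1.58 and 1.49, all on the same side; with exact zeros kept as ratios of 1 its call was lost (0.72, adjusted p = 0.0873).

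Rnf24 (-0.67 ± 0.12) and Rnf180 (-0.49 ± 0.33) were lower (SD, n = 3), and the call of Rnf180 was lost without array 2 (adjusted p = 0.0679) or array 3 (0.164). Rnf185, which acts beside Rnf5 at the endoplasmic reticulum, had values of -0.29, 0.26 and 0.22. It did not pass with all arrays, and passed without array 1 (0.24, adjusted p = 0.0277).

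The lowest Rnf genes encode nuclear proteins. Rnf2, the catalytic RING of Polycomb repressive complex 1, stood at -1.78, -1.15 and -1.35, at least 2-fold lower in liver on every array. Its mean was -1.43 ± 0.32 (SD, n = 3, limma adjusted p = 0.000220), and a second probe with a ratio on array 2 alone read -0.69; with zeros kept Rnf2 stood at -0.83 (adjusted p = 0.0179). Rnf168, which modifies histone H2A at DNA breaks, stood at -1.45, -1.13 and -0.85, with a mean of -1.14 ± 0.30 (limma adjusted p = 0.000494; 0.0548 with the unmoderated variance).

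Rnf138, a ligase of the DNA break response, was lower at -0.72 ± 0.15, with all 4 of its fully measured probes past the test on single probes (-0.86 to -0.63). Rnf214 was lower at -0.65 ± 0.083 over 4 probes, which lay between -0.70 and -0.60. All 4 probes of Rnf214 are annotated with the same sequence record, so their likeness may be that of 1 sequence. In both genes every fully measured probe was on the same side. In Rnf41, a ligase for the receptor ErbB3, probe 6836 stood at -1.14 and probe 13376 at 0.23; the gene mean of -0.45 passed, but not without array 3 (adjusted p = 0.0571).

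Of the other Rnf genes on the liver side, Rnf115 stood at 0.70, Rnf208 at 0.61, Rnf113a2 at 0.59 and Rnf181 at 0.44, and the call of Rnf181 was lost without array 3 (adjusted p = 0.0598). Rnf14, a coactivator of the androgen receptor, averaged 0.075 and did not pass, while single probes were called on both sides (0.70, adjusted p = 0.00253, and -0.58, adjusted p = 0.0302). Rnf7, the RING partner of Cul5, stood at -0.24 ± 0.11 (SD, n = 3) and did not pass. Without array 1 it did (-0.30, adjusted p = 0.0110), as did Rnf32 (-0.32, adjusted p = 0.0105) and Rnf166 (-0.21, adjusted p = 0.0474). In the limma fit on single probes, those of Rnf32 stood at -0.78 (adjusted p = 0.000769), 0.014 (0.930) and 0.0042 (0.985). Those of Rnf7 stood at -0.42 (adjusted p = 0.00828), -0.18 (0.137) and -0.11 (0.489).

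March proteins are RING ligases set in membranes, where they control the traffic of receptors, and all 3 genes on the array were measured. Marchf2 had log2 ratios of 2.04, 1.71 and 1.68, all well above 2-fold on the liver side. Its mean was 1.81 ± 0.20 (SD, n = 3), or 3.51-fold (limma adjusted p = 3.23e-05). Marchf5, a ligase of the mitochondrial outer membrane, was higher at 0.43 ± 0.11 (limma adjusted p = 0.00815). All 4 fully measured probes of Marchf5 were above 0 and passed singly (0.33 to 0.55), but without array 3 the gene did not pass (adjusted p = 0.0655). Probes 2099 and 7143 of Marchf5 share 1 sequence record. Marchf1, which removes MHC class II from the surface of antigen-presenting cells, did not differ detectably at -0.049 ± 0.099.

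Most Trim proteins combine a RING with B-box and coiled-coil domains, and 8 of 12 genes were measured. Of these 1 was higher in liver (12.5%, beside 30.1% of all genes) and 4 were lower (50%, beside 33.9%), and the median was -0.39. Trim59, a Trim protein with a transmembrane segment, had log2 ratios of -3.13, -3.39 and -3.09 on arrays 1, 2 and 3. It was lower in liver on every array, at -3.21 ± 0.16 (SD, n = 3), or 9.23-fold (limma adjusted p = 4.66e-06). Its fully measured probes gave -3.44 and -2.97, and one more probe gave -2.71 and -2.68 on arrays 2 and 3. The next lowest member measured on all 3 arrays was Trim16, at -1.54.

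Trim16 stood at -1.27, -1.75 and -1.61, with a mean of -1.54 ± 0.25 (SD, n = 3, limma adjusted p = 9.03e-05). Trim13, a ligase anchored in the endoplasmic reticulum, had values of -0.16, -1.07 and -1.14, so array 1 stood apart; its mean of -0.79 passed, but not without array 3 (-0.62, adjusted p = 0.0503). Trim47 was lower at -0.33, a call lost without array 2 (adjusted p = 0.0936) or array 3 (0.184). Trim29, a Trim protein of epithelia, was the highest of the class at 0.34 ± 0.072 (limma adjusted p = 0.0182), a call lost without array 2 (adjusted p = 0.127) or array 3 (0.103). Trim35 (-0.041, -0.35 and -0.97) did not pass, and passed without array 1 (-0.66, adjusted p = 0.00323).

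Promoter windows of 300 bases around the annotated start were available from RefSeq (GRCm38.p6) for 12 of the 16 members with a mean of at least 1 log2 unit and a passed test. They were searched on both strands, 1 motif at a time. The motifs were TTTGAA, the CHR element of many mitotic genes, and TTTGGCGC, CAAAGTCCA and GTTAAT, forms of E2F, HNF4 and HNF1 sites. TTTGAA occurred in a window of 4 of the 12 genes, Trim59 and Skp2 on the UMRR side and Fbxo8 and Rnf186 on the liver side, beside 20.2% of all 27025 genes with such windows. GTTAAT occurred in Rnf186 (8.24% of all genes), and TTTGGCGC (0.585%) and CAAAGTCCA (0.555%) in 0 of the 12. The windows of the lowest and the highest member are shown because they mark the ends of the range; capitals mark TTTGAA on either strand, and a match is a description of letters only. The Trim59 window (chr3:69044693-69044992, minus strand) has 76.7% G and C, and the Cul7 window (chr17:46650088-46650387, plus strand) has 53.3%, beside a median of 52.7% over all windows.
Trim59: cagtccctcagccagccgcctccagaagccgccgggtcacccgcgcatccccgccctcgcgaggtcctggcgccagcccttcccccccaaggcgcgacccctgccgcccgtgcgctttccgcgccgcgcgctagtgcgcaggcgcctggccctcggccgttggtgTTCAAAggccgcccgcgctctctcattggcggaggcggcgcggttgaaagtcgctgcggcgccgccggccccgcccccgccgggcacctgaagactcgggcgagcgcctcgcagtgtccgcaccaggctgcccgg
Cul7: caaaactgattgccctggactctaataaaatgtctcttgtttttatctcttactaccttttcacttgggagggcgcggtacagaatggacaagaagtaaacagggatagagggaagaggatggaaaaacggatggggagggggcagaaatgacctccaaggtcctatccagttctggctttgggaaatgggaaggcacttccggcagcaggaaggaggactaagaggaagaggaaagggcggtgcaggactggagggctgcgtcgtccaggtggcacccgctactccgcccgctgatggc

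The last small class held Siah, Nedd4 and Herc genes, with 3 of 6 measured. All their means were below 0, beside 2852 of all 5520 genes. Siah1a, a RING ligase of the Seven-in-absentia family of the fly, stood at -0.997, -1.06 and -1.15. These values lay close together, at -1.07 ± 0.076 (SD, n = 3, limma adjusted p = 0.000136). Herc6, a ligase for the ubiquitin-like protein ISG15 in mouse, was lower at -0.59 ± 0.072 (limma adjusted p = 0.00184), and Herc4 did not pass at -0.16 ± 0.29. The probes of Herc6 differed: probe 9779 stood at -0.82 (adjusted p = 0.000851 among single probes) and probe 11569 at -0.35 (0.0703), while probe 1088 read 0.36 on array 1 alone. With zeros kept the call of Herc6 was lost (-0.35, adjusted p = 0.0518). The probes of Herc4 lay on both sides of 0, at -0.59 (adjusted p = 0.0170 in the limma fit on single probes) and 0.27 (0.0769). Nedd4l and Herc3 were listed at exact 0, and Herc1 read -0.041 and -0.25 on 2 arrays.

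Probes of 1 gene could be set against each other for 23 members. The median difference between the highest and the lowest probe was 0.46, beside 0.34 over 1328 genes of the array. A gap of at least 1 log2 unit was found in 6 members (26.1%), beside 15.9% of those 1328 genes: Skp2, Klhl10, Skp1, Rnf41, Rnf14 and Klhl28. Probes called on opposite sides were found in Klhl10 and Rnf14 (8.70%), beside 6.33%. The probe positions in the transcripts are not used here, so probes for different transcript ends and probes that take up a related RNA cannot be told apart. A further 57 members rested on 1 fully measured probe.

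**Figure D3:**
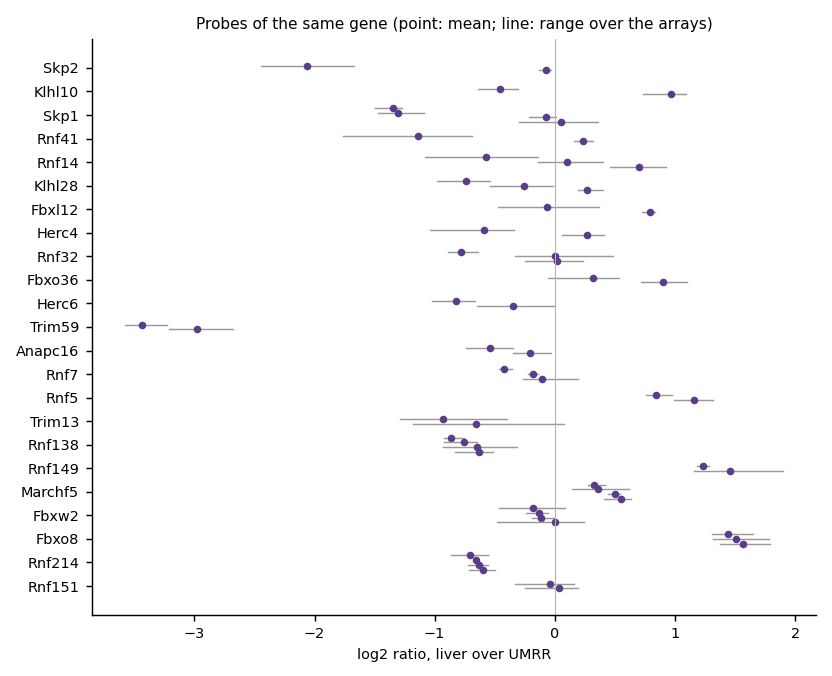
Mean log2 ratio of liver over UMRR (horizontal axis) of each probe measured on all 3 arrays (points), with its range over the arrays (lines), for the 23 members with at least 2 such probes, ordered by the gap between probes. Skp2, Klhl10 and Skp1 at the top have probes far apart, while the 3 probes of Fbxo8 lie between 1.44 and 1.57.

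Array 1 stood apart from the others for the members as it did for all genes. The SD of the difference across members was 0.41 between arrays 1 and 2 and 0.39 between arrays 1 and 3, against 0.20 between arrays 2 and 3. The sign was the same on every array in 65 members (81.2%, beside 79.5% of all genes). Of the 15 others, 9 had array 1 alone on the other side of 0, array 3 in 5 and array 2 in 1. Rnf141 was the most uneven of these, at -1.45 on array 1 against 0.22 and 0.13 on arrays 2 and 3, with a second probe at 0.93 and 0.88 on arrays 2 and 3. Without array 1, 72.5% of all genes passed. On those 2 arrays 27 members were higher, beside 34.9% of all genes, and 31 were lower, beside 37.7%.

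Many of the calls changed with the variance model or with the treatment of exact zeros. With the unmoderated variance, 2087 of all 5520 genes passed, beside 3535 in the main fit. In that setting 23 of the 51 called members no longer passed, at adjusted p-values between 0.0521 (Marchf5) and 0.186 (Trim13). Beside these 2, Rnf128 and Rnf168, they were Cul4a, Fbxl2, Fbxl6, Fbxl12, Fbxl20, Fbxo22, Fbxo32, Fbxo33, Fbxo36, Fbxo44, Fbxo45, Fbxw11, Klhl8, Klhl10, Rnf41, Rnf115, Rnf167, Rnf180 and Rnf208. With zeros kept as ratios of 1, 2391 of 7984 genes passed, and 22 of the called members no longer did. Most were in the list just given, and Fbxo25, Herc6, Rnf5 and Rnf181 (adjusted p = 0.127) were not. Keeping zeros moved the value by over 1.5 times for Fbxo22 (0.35), Rnf115 (0.35), Rnf113a2 (0.31), Fbxl12 (0.24) and Fbxo25 (-0.26), beside Cul7, Rnf128, Rnf2 and Herc6. Without array 1 the value of Fbxo33 was 0.33 (adjusted p = 0.00763).

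Genes that work beside these ligases were compared as lists, without the members themselves. Of 18 measured E1 and E2 enzymes, 6 were higher in liver (33.3%, beside 30.1% of all genes) and 9 lower (50%, beside 33.9%), and the median was -0.12. The list includes Sae1, which acts for the ubiquitin-like protein SUMO and did not pass (0.094). Ube2l6, the conjugating enzyme of ISG15, stood at 2.07, 2.18 and 2.11, with a mean of 2.12 ± 0.056 (SD, n = 3, limma adjusted p = 8.95e-06). Ube2s, which extends ubiquitin chains for the APC/C, stood at -1.98 ± 0.13 (limma adjusted p = 1.58e-05).

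Of 21 cofactors of cullin-RING ligases, 1 was higher (4.76%, beside 30.1% of all genes) and 10 were lower (47.6%, beside 33.9%), and the median was -0.20. Cks1b, the partner that Skp2 needs to bind p27, was lower at -2.23 ± 0.16 and Ccnf, an F-box protein that is also a cyclin, at -2.06 ± 0.25 (SD, n = 3). The one cofactor on the liver side was Dcun1d1, which helps to attach Nedd8 to cullins, at 0.46 ± 0.17 (limma adjusted p = 0.00884).

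Of 7 measured partners of the APC/C, 5 were lower (71.4%, beside 33.9% of all genes) and 1 was higher (14.3%, beside 30.1%), and the median was -1.98. That median is the mean of Ube2s, which is counted among the E1 and E2 enzymes as well. Cdc20, the activator of the complex in mitosis, stood at -2.92, -3.06 and -3.50, with a mean of -3.16 ± 0.30 (SD, n = 3, limma adjusted p = 8.53e-06). Mad2l1, the checkpoint protein that holds Cdc20 back, stood at -3.01 ± 0.14, and Mad2l1bp, which counters Mad2l1, went the other way at 0.76 ± 0.12 (limma adjusted p = 0.000783). Cdc20 and Mad2l1 lay below every measured Anapc subunit.

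Of 22 ligases with other names, 3 were higher (13.6%, beside 30.1% of all genes) and 8 lower (36.4%, beside 33.9%), and the median was -0.22. Not all are ubiquitin ligases, as the list holds Pias1, Pias2 and Pias4, which act for SUMO, and Mdm4, a relative of Mdm2. Pias2 (-0.998) and Mdm4 (-0.35) were among the lower genes, while Pias1 and Pias4 did not pass. Uhrf1, which reads hemimethylated DNA during replication, was lower at -2.69 ± 0.32 (limma adjusted p = 1.69e-05), and Hectd3, a HECT ligase, was higher at 2.17 ± 0.14 (limma adjusted p = 1.18e-05; SD, n = 3 each).

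**Figure D4:**
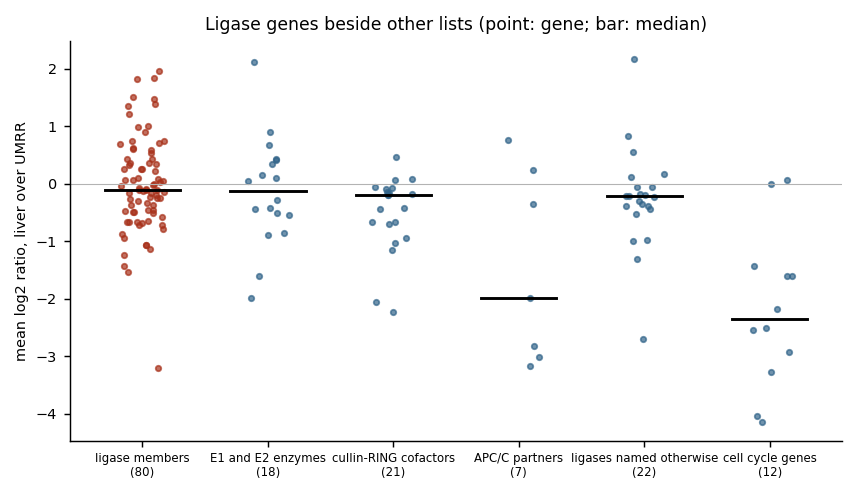
Mean log2 ratio of liver over UMRR (vertical axis) of single genes (points) and the median of each list (bars), for the ligase members and 5 other lists, with the number of genes under each name. The medians are -0.10 for the members, between -0.12 and -0.22 for the E1 and E2 enzymes, cullin-RING cofactors and other ligases, -1.98 for the APC/C partners and -2.34 for the cell cycle genes.

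Members without a full set of ratios were given no test. Among the 13 genes whose best probe was measured on 1 array, the values furthest from 0 not yet given were 1.62 for Fbxo21 on array 2, 1.05 for Rnf4 on array 1 and -1.21 for Fbxo30 on array 2. On 2 arrays, Trim37 read 0.29 and 0.28 and Trim3 read 0.16 and 0.054, while Fbxo34 read -0.051 and -0.070 with another probe at 0.66 on array 2. The other genes on 1 array (Fbxw7, Klhl22, Rnf10, Rnf170, Rnf6 and Trim10) read between -0.29 and 0.64. These single ratios carry no replicate check. Listed at exact 0, beside Anapc1, Cul1, Nedd4l and Herc3, were Fbxl17, Fbxo6, Fbxw5, Klhl35, Klhl7, Rnf122, Rnf135, Rnf157, Rnf183, Rnf227 and Trim32, and of these Rnf227 is annotated as a long noncoding RNA. Of the member probes, 64.8% had a ratio on all 3 arrays, beside 62.7% of all probes with 1 symbol.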

How the data were processed

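For every probe on each array the authors deposited a signed number, taken here to be a log2 ratio between the dyes. No source used here states its log base, background correction, dye normalization or filters. Exact zeros (32.2%, 23.5% and 29.6% of values on arrays 1, 2 and 3) were read as no measured ratio, and scanner intensities were not used, so dim probes could not be filtered. Of 16273 probes, 12336 had 1 symbol in the platform annotation, 61 several and 3876 none. All 113 member genes matched the reference gene table by identifier with the same symbol.

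Probes with 1 symbol and a ratio on all 3 arrays were averaged per gene and array, which gave 5520 genes. The mean of each gene was estimated by limma 3.58.1 (lmFit, eBayes) under R 4.3.3. Two-sided p-values for a mean of 0 were adjusted over all genes by the Benjamini-Hochberg method, with a threshold of 0.05. The fit was also run on simulated data with independent noise and few changed genes. That setting is unlike these data, so nothing about the calls is read from it. Single probes were fitted likewise (9910 probes). The number of arrays limits the precision.

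Full statistics went to members past the test with a mean of at least 1 log2 unit, and to the highest and lowest of each class. Of each other list, the 2 passing genes furthest from 0 were named, and the one furthest against the median. Members, lists, motifs and tests were chosen with earlier results of these data known. The alternatives changed the centring, scaling, arrays, probes, variance model, null, threshold and treatment of zeros.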

Additional observations from a re-analysis of the deposited data

How the results depend on the processing

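The mean of every called member kept its direction under all alternatives run on gene means, and calls were lost or gained as follows. Of 51 called members, 13 lost their call when 1 array was left out, 23 without moderation of the variance and 22 with zeros kept. A call was gained by 7 members without array 1, and by 1, Anapc15, under each of those other settings. Leaving out 1 array gave 2755 to 4004 called genes, 19 to 27 higher members and 19 to 31 lower members, beside 3535, 25 and 26 with all arrays. Without moderation of the variance 2087 genes, 13 higher and 16 lower members passed. Against a 2-fold difference 816 genes, 4 higher and 2 lower members passed. At a threshold of 0.01, 2739 genes, 20 higher and 17 lower members passed. With exact zeros kept as ratios of 1, the test took in 7984 genes and 113 members. There 2391 genes, 15 higher and 15 lower members passed. Fewer calls follow from the construction of the stricter threshold and null; for the other settings the cause was not tested.

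Signs turned only in members that did not pass with all arrays. With an array left out, the log2 value ranged from -0.085 to 0.11 for Fbxl12os, -0.20 to 0.023 for Fbxo47, -0.17 to 0.0057 for Fbxw2, -0.20 to 0.12 for Fbxw27, -0.26 to 0.0024 for Herc4, -0.078 to 0.0080 for Marchf1, -0.66 to 0.18 for Rnf141, -0.082 to 0.17 for Rnf146, -0.085 to 0.14 for Rnf151, -0.034 to 0.24 for Rnf185 and -0.19 to 0.0040 for Rnf216. With zeros kept, Rnf141 stood at 0.12 and Rnf146 at -0.017. Rnf151 stood at 0.019 with arrays centred and at 0.023 with arrays centred and scaled. Each value is a ratio of both RNAs on 1 array, so the test of its mean against 0 already pairs them by array. The arrays form 1 group, so no further pairing was made. The signal over background of the probes is not used here, so no limit from dim spots can be given.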
